A study of Mus musculus with 80 samples.

Results

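The comparison was between the H3K27me3 peak lists of day 6 (D6) and day 4 (D4) of chemical reprogramming, in which mouse embryonic fibroblasts (MEFs) are carried by small molecules towards induced pluripotent stem cells (iPSCs). All peaks on chromosomes 1 to 19, X and Y in columns 1 to 3 of both lists were taken, 7574 at D6 and 13599 at D4, of 710560 peaks in the 40 lists of the series. A D4 peak was called lost when no D6 peak shared at least 1 bp with it and kept otherwise, and a D6 peak without a D4 partner was called gained. The D6 and D4 cells are labelled as reprogramming intermediates and come from MEFs of strain 129XOG2, taken from embryos at day 13.5, used at passages 1 to 3 and changed to reprogramming medium, whose composition the labels do not give. OG2 is a transgene in which Pou5f1 regulatory sequence drives a fluorescent reporter. The assay was CUT&Tag, in which an antibody guides a transposase to chromatin that carries a mark. The labels name 2 libraries for each mark and stage, but 1 list was deposited for each. No value below therefore has a replicate spread, and no test between D6 and D4 was possible. Intervals in brackets after shares are 95% intervals (Wilson for peaks and for all genes, exact Clopper-Pearson for gene lists) and cover counting error only.

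H3K27me3 is written by Polycomb repressive complex 2 and is found at the CpG-rich promoters of developmental regulators that are silent in a given cell. In embryonic cells many of these promoters also carry H3K4me3, the mark of active and poised promoters, and are then called bivalent. H3K27ac, the mark of active promoters and enhancers, occupies the same lysine as H3K27me3, so both cannot sit on 1 histone tail. On the way from a fibroblast to a pluripotent cell, epithelial and pluripotency genes have to become active, while regulators of other lineages stay silent.

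Promoters of listed regulators show what kind of sequence carried the mark. They were taken in order of the authors' fold enrichment at D4. Only regulators with an annotated RefSeq start, whose 300-base promoter shared at least 1 bp with a D4 peak, were used. Regulators without such a start were passed over, among them the lost Foxl1 (3.52-fold) and Dlx3 (3.50-fold) and the kept Myf6 (6.00-fold) and Mixl1 (4.40-fold). Shown are promoters of the first lost genes (Atoh7, Sox8), the first lost genes with H3K27ac at D6 (Sox8, Sox21) and the first kept genes (Ferd3l, Mesp2). Each runs from 250 bases before to 50 bases after a RefSeq transcript start (GRCm38.p6), 5′ to 3′ on the gene's strand, with each CpG in capitals. Atoh7 (chr10:63099535-63099834, plus strand) had 11 CpG, Sox8 (chr17:25570637-25570936, minus strand) had 21 and Sox21 (chr14:118236981-118237280, minus strand) had 22. Ferd3l (chr12:33928175-33928474, plus strand) had 6 and Mesp2 (chr7:79810477-79810776, plus strand) had 10.
Atoh7: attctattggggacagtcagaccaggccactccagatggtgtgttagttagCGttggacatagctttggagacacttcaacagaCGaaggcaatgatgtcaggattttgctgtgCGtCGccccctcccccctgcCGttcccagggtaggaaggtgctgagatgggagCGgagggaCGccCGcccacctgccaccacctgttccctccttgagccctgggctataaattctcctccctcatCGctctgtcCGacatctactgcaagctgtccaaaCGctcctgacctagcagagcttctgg
Sox8: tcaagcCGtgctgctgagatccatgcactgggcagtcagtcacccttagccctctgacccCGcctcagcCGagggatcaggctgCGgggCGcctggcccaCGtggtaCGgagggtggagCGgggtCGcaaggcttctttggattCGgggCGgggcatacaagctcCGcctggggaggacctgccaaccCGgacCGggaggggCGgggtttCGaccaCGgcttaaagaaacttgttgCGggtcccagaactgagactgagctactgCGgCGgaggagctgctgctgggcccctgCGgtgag
Sox21: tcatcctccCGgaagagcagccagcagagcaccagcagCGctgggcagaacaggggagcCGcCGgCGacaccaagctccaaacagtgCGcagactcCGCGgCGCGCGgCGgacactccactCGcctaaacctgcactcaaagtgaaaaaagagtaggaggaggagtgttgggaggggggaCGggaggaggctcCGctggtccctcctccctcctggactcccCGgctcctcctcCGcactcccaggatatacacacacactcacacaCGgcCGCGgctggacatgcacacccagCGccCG
Ferd3l: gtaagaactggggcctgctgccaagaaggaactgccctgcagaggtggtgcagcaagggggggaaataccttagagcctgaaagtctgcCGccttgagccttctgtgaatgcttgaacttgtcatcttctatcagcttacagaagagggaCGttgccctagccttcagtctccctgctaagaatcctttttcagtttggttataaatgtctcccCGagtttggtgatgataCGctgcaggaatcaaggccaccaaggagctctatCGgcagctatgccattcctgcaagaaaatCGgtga
Mesp2: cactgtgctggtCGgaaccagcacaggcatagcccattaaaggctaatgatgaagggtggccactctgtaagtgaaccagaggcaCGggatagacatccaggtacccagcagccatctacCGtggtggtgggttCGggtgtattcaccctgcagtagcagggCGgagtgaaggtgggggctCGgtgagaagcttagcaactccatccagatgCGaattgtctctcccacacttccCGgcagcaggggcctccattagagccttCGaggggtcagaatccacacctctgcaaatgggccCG
Over all promoters with the mark, lost and kept ones were close in CpG content. The median was 19 CpG in 1874 promoters that lost H3K27me3 by D6 and 17 in 1584 that kept it, against 13 in all 21263 promoters. At least 10 CpG were found in 76.8% of lost and 74.3% of kept promoters, against 56.8% of all promoters. Promoters with H3K4me3 at D6 or D4 and no H3K27me3 were richer still, with a median of 22 CpG and 87.3% with at least 10. The 267 gained promoters, with a median of 13 CpG and 58.8% with at least 10, were close to all promoters.

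Most of the D4 peaks had no counterpart at D6. Of the 13599 D4 peaks 9661 were lost, 71.0% (70.3 to 71.8), and 3938 were kept, while 3567 of the 7574 D6 peaks were gained, 47.1% (46.0 to 48.2). The marked sequence came to 4.11 Mb at D6 and 9.24 Mb at D4, of which 2.15 Mb were shared, 52.2% of the D6 sequence and 23.2% of the D4 sequence. The shared peaks were also narrower at D6: kept peaks had a median width of 551 bp in the D6 list and 826 bp in the D4 list, and the D6 list covered a median of 63.6% of a kept D4 peak. Since whole cultures were assayed, fewer cells with the mark and less of the mark per cell cannot be told apart.

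Lost peaks were the weaker and narrower ones of the D4 list. Their median width was 471 bp, against 826 bp for kept peaks, their median fold enrichment in the D4 list was 3.35, against 3.84, and their median −log10 p was 9.08, against 14.5. Fold enrichment and p are the authors' values for single peaks, and every listed peak had a p of at most 1e-05. Split into 5 equal groups by −log10 p, the D4 peaks of the highest group were lost in 31.6% (29.9 to 33.4) and those of the lowest in 90.5% (89.3 to 91.5). Gained peaks followed the same order in the D6 list, with 14.5% (12.8 to 16.4) of the highest group and 72.6% (70.3 to 74.8) of the lowest. Few peaks lay near the boundary of the rule: 42 kept D4 peaks shared at most 50 bp with a D6 peak, and 430 lost peaks, 4.45%, had a D6 peak within 1 kb.

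**Figure D1:**
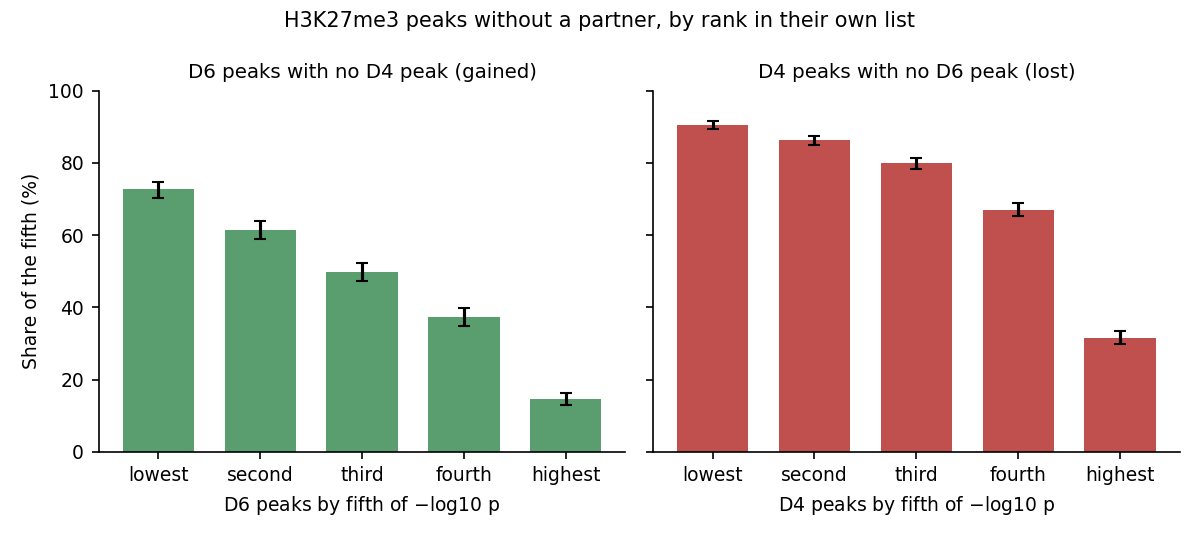
Share of peaks without a partner in the other list, in percent, in 5 equal groups by the authors' −log10 p within each list. Left, D6 peaks with no D4 peak; right, D4 peaks with no D6 peak; lines are 95% Wilson intervals. The gained share runs from 72.6% in the lowest group to 14.5% in the highest, and the lost share from 90.5% to 31.6%.

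The lost share depended on the length of the lists. With both lists cut to 7574 peaks by −log10 p, 57.8% of the D4 peaks were lost and 56.7% of the D6 peaks were gained (equal lengths make these shares nearly the same by construction). Each step was cut to its own shorter list, of 7574 to 14438 peaks, so the shares do not rank all steps. Equal-length loss was 47.9% from D0 to D2 (14438 peaks), 49.5% from D2 to D4 (13599) and 57.8% from D4 to D6 (7574). It was 61.9% from D6 to D8 (7574), 55.5% from D8 to D10 (13383), 62.6% from D10 to D12 (9972) and 68.6% from D12 to iPSC (9972). At the same 7574 peaks, the loss from D6 to D8 was above that from D4 to D6. Sequencing depth, read as the most common genome-wide background behind the peaks, was 2.75 fragments per position at D6 and 3.31 at D4. Scaling the D4 pileups to the D6 background removed 281 D4 peaks, 2.07%, and left the lost share at 70.6%.

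Where the peak was kept, fewer fragments lay under it at D6. Over the 1794 genes that kept a peak at the gene start, the pileup at the summit, solved from the authors' fold and p, had a median of 33 fragments at D6 and 56 at D4. In units of each list's genome-wide background these were 12 at D6 and 16.9 at D4, lower at D6 in 1443 genes, 80.4%. The local background that the caller set against the summit was lower too, with medians of 2.89 at D6 and 3.89 at D4 in the same units. The fold enrichment, which divides one by the other, was lower at D6 in 54.2% of the same genes. The lists were not normalised to each other, so these are values side by side and not a measured change.

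Peaks at gene starts formed a larger part of the kept than of the lost class. A gene start (within 1.0 kb of an annotated start, or of a gene end for 4395 genes without one) was overlapped by 24.1% (23.3 to 25.0) of lost, 46.1% (44.5 to 47.6) of kept and 10.3% (9.33 to 11.3) of gained peaks. Kept peaks were also wider (median 826 bp against 471 bp for lost ones), which raises their overlap with any window. Outside genes and their starts lay 42.8% of lost, 30.2% of kept and 55.6% of gained peaks. D4 peaks within 5 kb of each other were joined into domains. No D6 peak was found in 70.7% (69.8 to 71.5) of domains with 1 peak, 54.5% (51.6 to 57.3) of those with 2 and 42.9% (34.3 to 51.8) of those with 3 to 5, while all 5 domains with at least 6 peaks had one. Larger domains also offered more sequence to overlap. D6 peaks amounted to 23.7% of the D4 sequence in domains with 1 peak, 22.5% in those with 2 and 29.2% in those with 3 to 5. In the 5 domains with at least 6 peaks they amounted to 75.5%, running from 52.1% to 110.5% in the single domains. The only genes named at these 5 domains were Gm40363 and Fcgr3, neither of them a listed developmental regulator. By chromosome, the lost share ran from 62.0% (54.5 to 68.9) of the 171 X peaks to 78.4% (74.3 to 82.0) of the 444 peaks on chromosome 19.

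At the level of genes, the number with H3K27me3 at the start was 2099 of 21887 at D6, 9.59%, and 3861 at D4, 17.6%. Of the D4 genes 2067 were lost, 53.5% (52.0 to 55.1), and 1794 kept, and 305 of the 18026 genes without the mark at D4 gained it, 1.69%. With lists of equal length 46.5% of 3052 D4 genes were lost. These shares are the background for every gene group below.

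The genes with the highest fold in the D4 list among those lost were not lineage regulators. They were Kdm1b, a histone H3K4 demethylase, with Tpmt under the same peak (7.49-fold), Rab29 (7.42-fold), Cgref1 (7.11-fold), the mitochondrial iron carrier gene Slc25a28 (7.08-fold), Morn5 and Ndufa8 under 1 peak (7.05-fold), the mitochondrial tryptophanyl-tRNA synthetase gene Wars2 (6.96-fold), the Wnt receptor gene Fzd6 (6.84-fold) and Lmbr1 (6.80-fold). All 10 carried H3K4me3 at both stages, and 9 of the 10, Fzd6 apart, carried H3K27ac at D6, against 82.5% of all lost genes with H3K4me3 and 41.9% with H3K27ac at D6. High fold did not mean many fragments: the D4 summit pileups of these 10 were 29 to 40 over local backgrounds of 3.31 to 4.77. The medians over all lost genes were 41 and 10.9. H3K27me3 was listed at no other stage for Rab29 and Wars2. Among kept genes the highest fold in the D6 list belonged to Mfap2, a microfibril gene, with 13.3-fold at D6 and 12.1-fold at D4, and to Adgrf2 with 9.70-fold at D6 and 10.2-fold at D4, both marked at all 8 stages. Cdv3, Rrs1, Tsga10, Cntnap2, Chgb, Tbl2, Gca and Chodl followed, with 8.54-fold to 7.54-fold at D6. The gained genes with the highest fold at D6 were Armc4 (7.38-fold), the interferon gamma receptor gene Ifngr1 (7.20-fold), Gpr75 (6.94-fold), Asb13, Rsph4a, Net1, Scg3, Arxes1, Hfm1 and Baiap2l1 (6.25-fold). Armc4 was marked at D6, D8, D10 and D12, while Rsph4a and Net1 were marked at D6 alone.

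Developmental transcription factors were lost in the same proportion as all genes. Of 204 genes in 5 lists (Hox, other homeobox and Pax, bHLH, forkhead, and T-box, GATA and SOX genes), 51 were marked at D6 and 99 at D4, with 53 lost, 46 kept and 5 gained. The lost share was 53.5% (43.2 to 63.6), the same figure as over all genes, and 34 of 73 were lost with lists of equal length. Lost and kept regulators had much the same number of fragments at D4: a median summit pileup of 74 (range 45 to 110) in lost ones and 77 (range 27 to 104) in kept ones. By the authors' values the lost ones were weaker at D4, with a median fold of 2.36 against 2.65 and a median −log10 p of 11.1 against 13.9. Kept regulators had a median pileup of 38.5 at D6, 14.0 times the genome-wide background, against 77 at D4, 23.3 times it, and the value so scaled was lower at D6 in 43 of the 46. Their local background was 4.30 times the genome-wide one at D6 and 8.66 times at D4. The fold enrichment went the other way, with a median of 3.06 at D6 and 2.65 at D4, and was lower at D6 in 12 of the 46.

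Among homeobox and Pax genes outside the Hox clusters, 16 of 74 were marked at D6 and 35 at D4, with 22 lost, 13 kept and 3 gained, a lost share of 62.9% (44.9 to 78.5). Dlx3, a regulator of ectodermal appendages, had the highest D4 fold of the lost ones at 3.50 (pileup 109), followed by Pou4f2 of retinal ganglion cells at 3.23 and Pax8 of thyroid and kidney at 3.20. Pax6, Lhx2, Cdx2 and Otx2 were lost as well. The start of Otx2, a head and epiblast regulator, gained both H3K4me3 and H3K27ac at D6. Its H3K27ac was listed at no other stage, and its H3K27me3 was listed again at D10 and in iPSCs. Kept members were led by the mesendoderm gene Mixl1, with 3.06-fold at D6 and 4.40-fold at D4, and by Cdx4, with 4.21-fold at D6 and 3.89-fold at D4. Isl1, Pitx1 and Gbx2 were the gained ones, and all 3 had been marked at D0.

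Of 32 bHLH genes, many of which direct neurons and muscle, 14 were marked at D6 and 24 at D4, with 10 lost, 14 kept and 0 gained, a lost share of 41.7% (22.1 to 63.4). Atoh7, which specifies retinal ganglion cells, had 53 fragments at its D4 summit, 4.39-fold, and no D6 peak. Myod1 (3.01-fold), Neurod2 (2.52-fold), Neurod1 and Neurog3 were lost too. Myf6, a late muscle regulator, was kept with 5.49-fold at D6 and 6.00-fold at D4. Ferd3l had 31 fragments at the summit at D6 and 62 at D4, and Mesp2, a somite gene, had 38 at D6 and 59 at D4. Neurog1, Neurog2, Atoh1 and Sim1 were also kept.

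Forkhead genes had 7 of 27 marked at D6 and 14 at D4, with 9 lost, among them Foxl1 (3.52-fold at D4), Foxe3 (3.17-fold), Foxj1 of ciliated cells (3.12-fold) and Foxf1. Foxi2, Foxh1, Foxd1, Foxc1 and Foxd4 were kept, and Foxd2 and Foxa3 were gained. The T-box, GATA and SOX list had 7 of 32 genes marked at D6 and 15 at D4, with 8 lost and 7 kept. Its lost members were Tbr1 (3.06-fold at D4), Sox8 (2.91-fold), Sox7, Gata4, Sox21, Tbx1, Eomes and Sox17. Gata4, Sox7 and Sox17 are endoderm regulators, and Sox7 and Sox17 had H3K27ac at D6 and at D4. Sox2, a core pluripotency factor, was kept, with 47 fragments at D6 and 66 at D4, as were Gata5, Sox14, Sox18, Tbx10, Tbx20 and Tbx21.

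Hox genes, which set position along the body axis, had 7 of 39 starts marked at D6 and 11 at D4. Hoxc11, Hoxd8, Hoxd13 and Hoxc13 were lost, and Hoxb1, Hoxd12, Hoxd1, Hoxd10, Hoxa13, Hoxc10 and Hoxb13 kept. Over the whole clusters the mark covered 0.849 kb at D6 and 2.12 kb at D4 in Hoxa, 2.69 kb at D6 and 5.28 kb at D4 in Hoxb, 1.12 kb at D6 and 3.34 kb at D4 in Hoxc, and 1.35 kb at D6 and 4.93 kb at D4 in Hoxd. At D0 the clusters had 13.3, 22.8, 16.2 and 20.0 kb, so most of their cover was already missing at D4. Hoxb1, which acts in the hindbrain, was marked at all 8 stages.

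**Figure D2:**
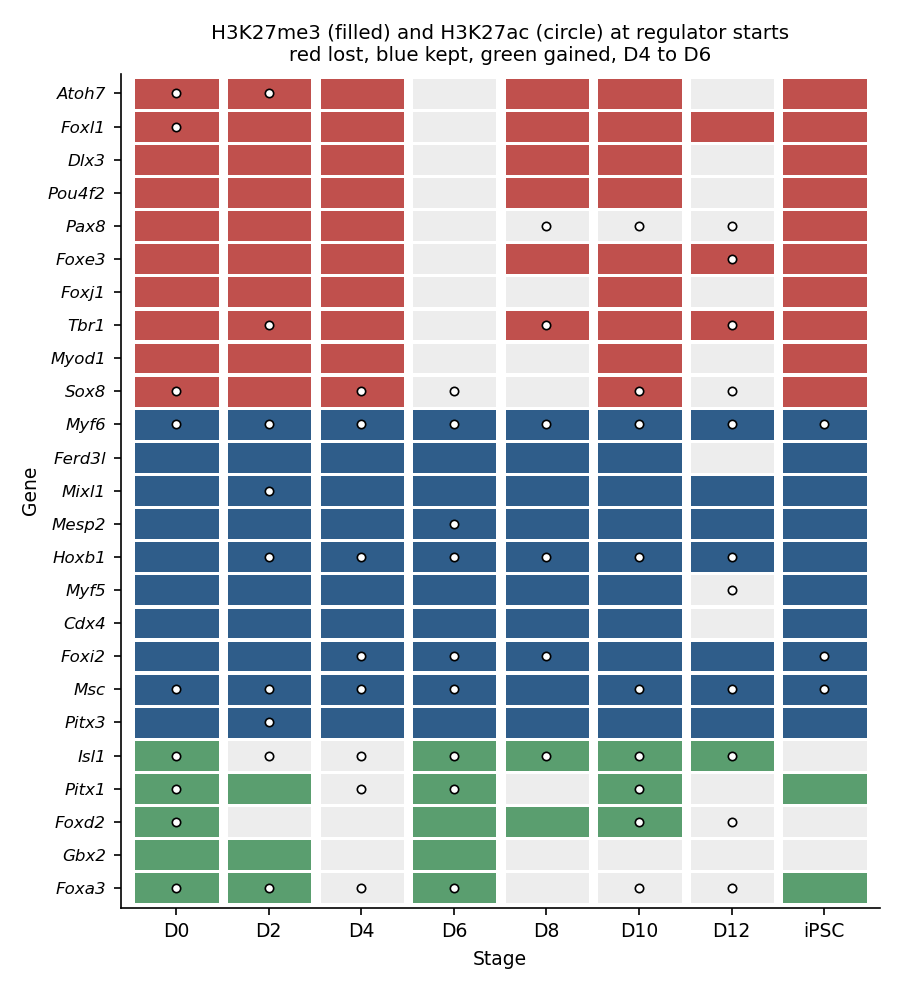
H3K27me3 (filled tile) and H3K27ac (circle) at the starts of 25 regulators over the 8 stages: the 10 lost and 10 kept genes with the highest fold at D4 and the 5 gained genes. Grey tiles have no H3K27me3 peak. All 10 lost genes were marked again at D8 or later, in iPSCs in every case.

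Signalling genes were the list with the most members marked at D4. Of 57 Wnt, Fgf, Bmp, Nodal-family and Hedgehog ligands and their antagonists, 16 were marked at D6 and 46 at D4, with 31 lost, 15 kept and 1, Wnt4, gained. The lost share was 67.4% (52.0 to 80.5), an interval that includes the 53.5% of all genes, and 22 of 37 were lost with lists of equal length. The highest D4 fold among lost members was that of Wnt2b (4.19), followed by the Wnt antagonist gene Dkk2 (4.12), Wnt2 (4.00), Lefty2 (3.93) and Nodal (3.82), a mesendoderm ligand that Lefty2 antagonises. Nodal had 81 fragments at the D4 summit over a local background of 20.4. The Bmp antagonist genes Nog (3.67) and Chrd (3.66) were lost too, as were Fgf10, Fgf4, Bmp2, Bmp7, Ihh and Dhh. Kept members included Gdf3 (5.12-fold at D6 and 5.09-fold at D4), Dkk1 (3.79-fold at D6 and 4.87-fold at D4), Lefty1, Bmp6, Grem1, Fgf5 and Wnt1. Of the 31 lost members 27 were marked again at D8 or D10, 87.1% (70.2 to 96.4), against 57.9% (55.8 to 60.0) of all lost genes. Of the 20 lost members without H3K27ac at D4, 1 (Bmp7) had it at D6, against 260 of 1246 such genes among all lost ones.

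Epithelial genes were mostly kept. Of 26, 16 were marked at D6 and 19 at D4, with 5 lost, 14 kept and 2 gained, a lost share of 26.3% (9.15 to 51.2). With lists of equal length 5 of 19 were again lost, and the same interval then includes the 46.5% lost over all genes at that length. The 5 lost genes were Pkp3, Cdh3, the simple keratin gene Krt8, Cldn6 and Ovol1. Cdh1, which encodes E-cadherin, had 33 fragments at the summit at D6 and 84 at D4. Epcam, an epithelial adhesion gene, had 28 at D6 and 52 at D4, and the tight junction gene Cldn7 had 32 at D6 and 78 at D4. Krt19, Grhl2, Ovol2, Esrp2, Ocln, Spint1 and Spint2 were kept as well. The 14 kept genes had fewer fragments at D6 in every case, with a median pileup of 11.5 times the genome-wide background at D6 and 20.8 times at D4. Their local background was lower in all 14 as well, 3.43 times the genome-wide one at D6 and 6.21 times at D4, and their fold enrichment was lower at D6 in 7 of the 14. By D8, 4 of these 14 still had the mark, 28.6% (8.39 to 58.1), against 76.8% (74.7 to 78.7) of all kept genes. H3K27ac was on 3 of the 14 at D4, 4 at D6 and 10 at D8, 71.4% (41.9 to 91.6), while over all kept genes it was on 42.9% at D4, 51.3% at D6 and 40.6% at D8.

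Pluripotency genes had 9 of 25 starts marked at D6 and 15 at D4, with 6 lost and 9 kept. Klf4, one of the reprogramming factors, had 50 fragments at the D4 summit, 4.61-fold, and was marked at D2 and D4 alone, while H3K27ac was listed there at all 8 stages. Esrrb and Sall1 lost H3K27me3 and had H3K27ac at D6 and not at D4. At Esrrb this H3K27ac was listed at D6 alone, and at Sall1 it was listed at D2 and at every stage from D6 on. Lin28a, Fgf4 and Prdm14 were the other lost ones. Kept members were Pou5f1, Nanog, Sox2, Nr0b1, Gdf3, Utf1, Tfcp2l1, Klf2 and Nr5a2. Nanog had 17 fragments at D6 and 20 at D4, and Nr0b1 25 at D6 and 49 at D4. In units of the genome-wide background the pileup was lower at D6 in 7 of the 9, the exceptions being Nanog (6.18 at D6 and 6.04 at D4) and Gdf3 (12 at D6 and 7.86 at D4). Pou5f1 had 150 at D6 and 188 at D4, but the OG2 transgene carries sequence of this gene, so fragments of the transgene and of the gene cannot be told apart. Tfcp2l1 and Utf1, though kept, had H3K27ac at D6 and not at D4, and at Utf1 it was listed at D6 alone. Among 16 formative and primed pluripotency genes, 5 were marked at D6 and 11 at D4, with Nodal, Lefty2, Otx2, Foxd3, Zic2, Zic5 and Eomes lost.

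In the smaller lists the intervals were wide. Trophoblast markers had 1 of 10 (Krt7) marked at D6 and 7 at D4, with Tead4, Elf5, Tfap2c, Ascl2, Cdx2 and Eomes lost, 85.7% (42.1 to 99.6). Imprinted genes had 1 of 22 (Phlda2) marked at D6 and 7 at D4. The lost ones were Ndn, Igf2, Magel2, Gnas, Dlk1 and Kcnq1, and all 6 were marked again at D10. Genes of the primitive endoderm list, whose program is active in extraembryonic endoderm, had 2 of 18 marked at D6 and 6 at D4, with Gata4, Sox7, Sox17 and the collagen IV pair Col4a1 and Col4a2, which share 1 peak, lost and Lama1 gained. Genes of the Polycomb machinery itself had 3 of 34 marked at D6 and 8 at D4. Phc2, Kdm2b, Rybp, Cbx7, Phf19, Epop and Cbx8 were lost, Pcgf5 was kept, and the H3K27 demethylase gene Kdm6b and Bmi1 were gained. Neurotransmitter receptor and channel genes had 17 of 38 marked at D6 and 31 at D4, with 16 lost, among them Gria1 (4.78-fold at D4), and 15 kept, among them Htr1a (4.89-fold at D6 and 4.96-fold at D4). Neuronal markers had 3 of 12 at D6 and 6 at D4, endothelial markers 4 of 10 at D6 and 6 at D4, skeletal muscle markers 1 of 10 at D6 and 4 at D4, and blood markers 0 of 10 at D6 and 1 (Tal1) at D4. Fibroblast genes had 0 of 25 at D6 and 2 (Col1a2 and Thy1) at D4, germline genes 1 of 20 (Tdrkh) at both stages, and senescence genes 1 of 15 at each, Cdkn2c at D6 and Cdkn1a at D4. No hepatic marker and no housekeeping gene was marked at either stage.

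**Figure D3:**
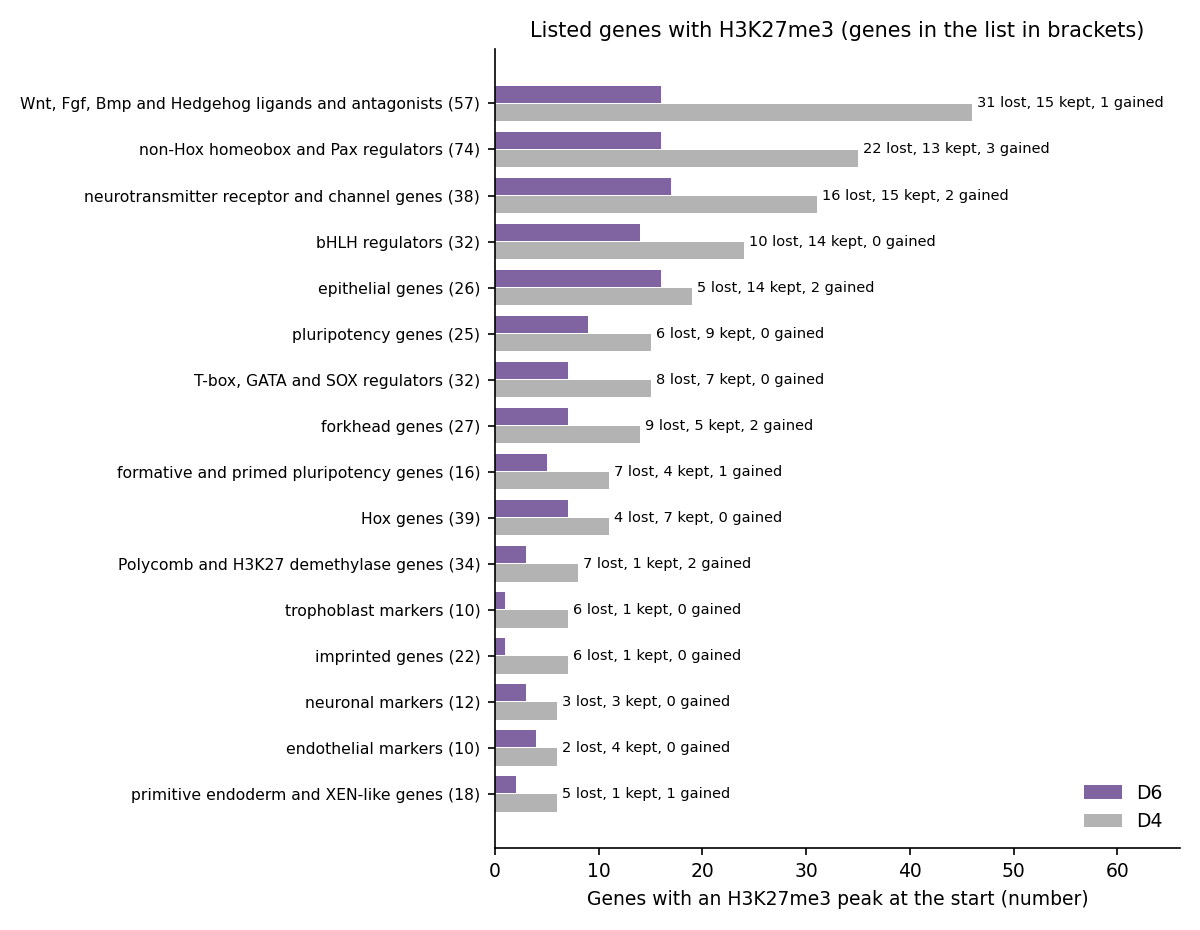
Number of genes with an H3K27me3 peak at the start at D6 (upper bar) and D4 (lower bar) in the lists where the D6 and D4 numbers add to at least 6, with lost, kept and gained genes beside the bars. The epithelial list has 16 at D6 and 19 at D4, and the Wnt, Fgf, Bmp and Hedgehog list 16 at D6 and 46 at D4.

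H3K4me3 at these sites differed little between the stages. It overlapped 29.6% of lost peaks at D6 and 29.6% at D4, 58.8% of kept peaks at D6 and 61.4% at D4, and 9.67% of gained peaks at D6 and 9.56% at D4. Over all genes 62.4% had H3K4me3 at the start at D6 and 62.7% at D4; 2.55% of genes without it at D4 gained it and 2.03% of those with it lost it. Of lost genes 82.5% (80.8 to 84.1) had it at D6 and 84.2% at D4, and of kept genes 84.7% (83.0 to 86.3) at D6 and 88.0% at D4. For the 4395 genes placed by a gene end, that end was chosen by H3K4me3 at any stage. Their H3K4me3 and bivalent calls, here and elsewhere in the text, are therefore partly set by the choice. Bivalent starts that lost H3K27me3 mostly kept H3K4me3. Genes with both marks numbered 1712 at D6 and 3319 at D4, 51.6%. Of the 3319, 45.0% (43.3 to 46.7) still had both at D6, 50.3% (48.6 to 52.0) had H3K4me3 alone, 2.53% had H3K27me3 alone and 2.17% had neither. Starts with H3K27me3 alone at D4 were lost in 60.1% (56.0 to 64.2) of 542 genes, against 52.5% (50.8 to 54.2) of the bivalent ones.

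H3K27ac was found more often at kept than at lost peaks. It overlapped 13.9% (13.3 to 14.6) of lost peaks at D6 and 11.0% at D4, 37.7% (36.2 to 39.2) of kept peaks at D6 and 29.0% at D4, and 10.3% of gained peaks at D6 and 6.92% at D4. The H3K27ac list was longer at D6, with 22598 peaks against 16671 at D4, and cut to equal length it overlapped 10.5% of lost and 31.3% of kept peaks at D6, below the D4 share for lost peaks and above it for kept ones. The difference between classes held among the D4 peaks with the highest −log10 p (the top group of 5), where H3K27ac at D6 overlapped 30.7% (27.7 to 33.9) of lost and 49.8% (47.5 to 52.1) of kept peaks. Over all D4 peaks, kept ones were also wider (median 826 bp against 471 bp) and more often at gene starts (46.1% against 24.1%). The classes were not matched for width or place.

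At gene starts, 44.6% of all genes had H3K27ac at D6 and 45.6% at D4, and 15.6% of genes with it at D4 had none at D6. Of genes without H3K27ac at D4, 11.3% had it at D6. That share was 20.9% (18.7 to 23.2) of 1246 lost genes, 33.5% (30.7 to 36.4) of 1024 kept genes and 7.58% (7.07 to 8.13) of 9467 genes with H3K27me3 at neither stage. H3K27ac also went in the other direction. Of genes with it at D4, none was listed at D6 in 26.2% of lost genes, 24.9% of kept genes and 13.6% of genes with H3K27me3 at neither stage. Lost genes thus had 260 new and 215 gone, and kept genes 343 new and 192 gone. New H3K27ac stood more often at starts that kept H3K27me3 than at those that lost it. Whether both marks sat on the same alleles or in different cells cannot be told from separate lists. Of the 53 lost regulators 48 had H3K4me3 and 17 had H3K27ac at D6, and the 9 of these without H3K27ac at D4 included Otx2, Sox21, Lhx2 and Hoxc11. H3K18la, a lactate-derived mark, overlapped 13.5% of lost peaks at D6 and 9.99% at D4, and 36.4% of kept peaks at D6 and 30.1% at D4. Its list was longer at D6, with 18455 peaks against 11800 at D4, and with lists of equal length the direction turned: 8.84% of lost and 24.7% of kept peaks were overlapped at D6, below the D4 shares. H3K9me3, the heterochromatin mark, had 10744 peaks at D6 and 25050 at D4. It overlapped 0.528% of lost peaks at D6 and 0.942% at D4 (0.631% at D4 with lists of equal length), and 4.19% of kept peaks at D6 and 5.54% at D4 (4.70% at D4 with lists of equal length).

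**Figure D4:**
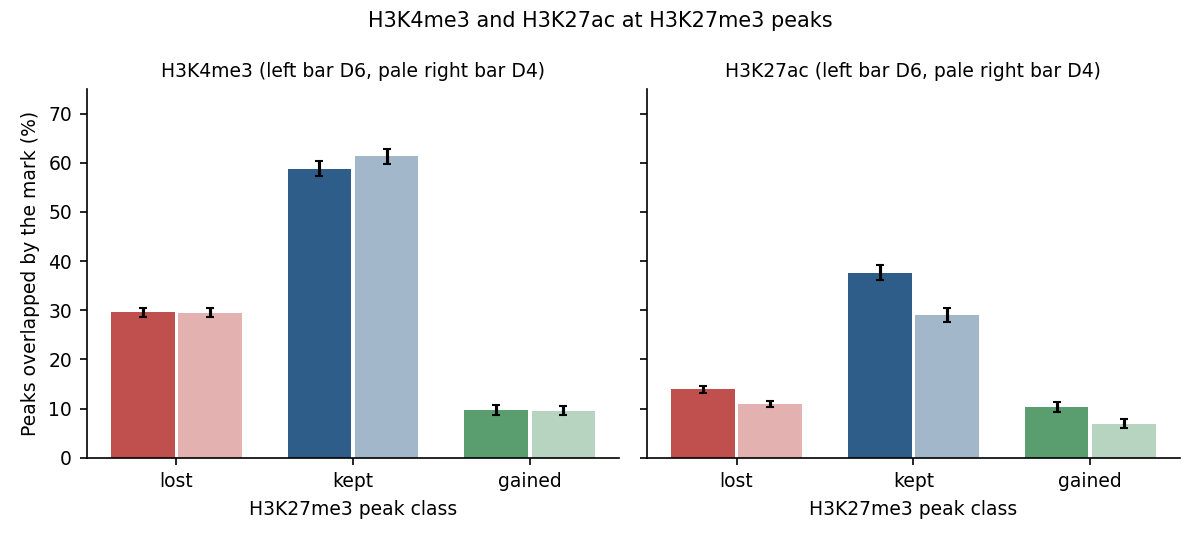
Share of lost, kept and gained H3K27me3 peaks overlapped by H3K4me3 (left panel) and H3K27ac (right panel), in percent, at D6 (left bar of each pair) and D4 (pale right bar), with 95% Wilson intervals. H3K4me3 is on 29.6% of lost peaks at both stages, and H3K27ac on 37.7% of kept peaks at D6 and 29.0% at D4.

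The other stages showed when the lost sites had carried the mark. Of the lost peaks 49.9% were marked at D0, 39.6% at D2, 25.2% at D8, 28.9% at D10, 12.8% at D12 and 29.1% once iPSCs were reached, and 50.1% (49.1 to 51.1) at any stage after D6. Kept peaks were marked in 83.5% at D0, 78.2% at D2, 70.7% at D8, 71.0% at D10, 48.4% at D12 and 69.0% once iPSCs were reached. Gained peaks were the most isolated: 50.3% (48.6 to 51.9) had a peak at none of the other 6 stages outside D4 and D6, against 29.3% (28.4 to 30.2) of lost and 4.09% (3.51 to 4.75) of kept peaks. In that top group of D4 peaks, 84.3% (81.7 to 86.6) of the lost ones were marked again at a later stage. Among lost genes 72.6% were marked at D0, 54.2% at D2, 37.3% at D8, 50.3% at D10, 28.0% at D12 and 60.1% once iPSCs were reached, and 78.4% (76.5 to 80.1) at any later stage. Of the 53 lost regulators 20 were marked again at D8, 35 at D8 or D10 and 46 at any later stage. Kept genes were marked at all 6 other stages in 719 of 1794, 40.1%, against 172 of 2067 lost genes, 8.32%.

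**Figure D5:**
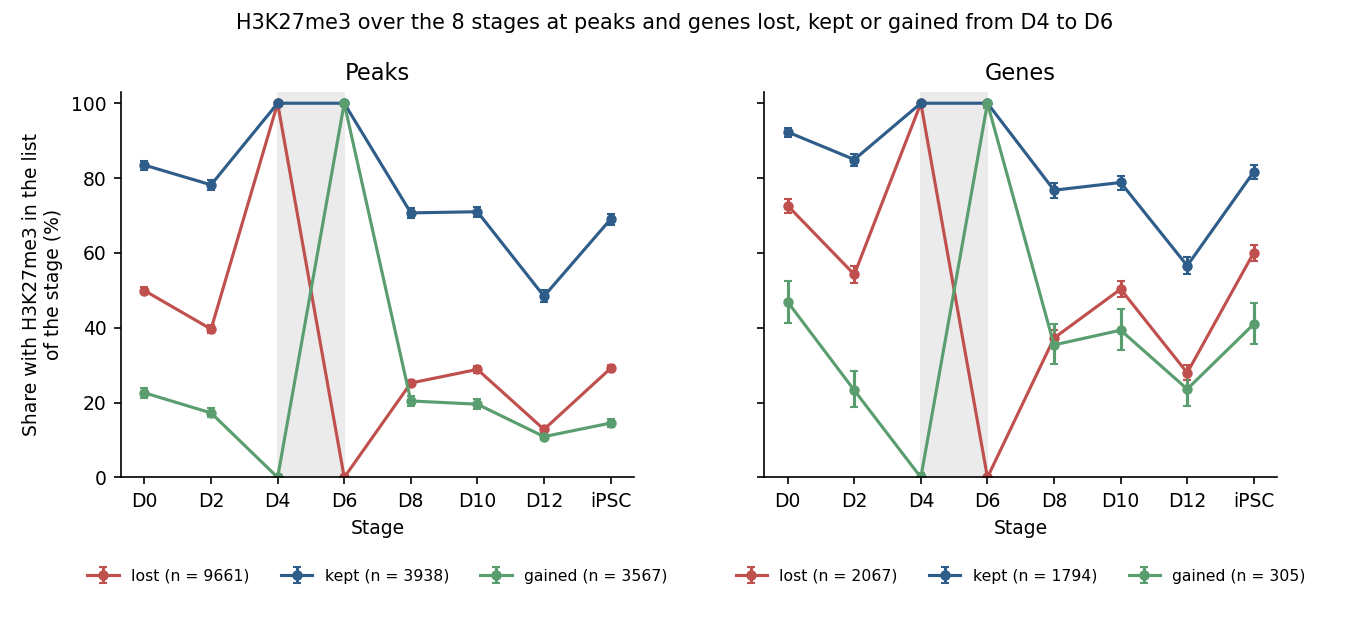
Share of peaks (left) and genes (right) with H3K27me3 in the list of each stage, in percent, for those lost, kept or gained between D4 and D6 (shaded), with 95% Wilson intervals. The values at D4 and D6 are fixed by the classes; lost genes stand at 37.3% at D8 and 60.1% in iPSCs, and kept genes at 76.8% at D8 and 81.7% in iPSCs.

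Markers of several cell types were read at both stages. The lists do not show which of these cells were in the cultures. All 6 fibroblast markers (Col1a1, Col1a2, Thy1, Twist1, Prrx1 and Vim) had H3K4me3 at D6 and at D4, and 4 of 6 had H3K27ac at each. All 4 epithelial markers (Cdh1, Epcam, Krt8 and Krt18) had H3K4me3 at both stages, and H3K27ac was on 1 (Cdh1) at D6 and 2 (Cdh1 and Krt8) at D4. Of the pluripotency markers Pou5f1, Nanog, Zfp42 and Esrrb, 1 (Esrrb) had H3K4me3 at both stages, and H3K27ac was on 2 (Pou5f1 and Esrrb) at D6 and 1 (Pou5f1) at D4. H3K4me3 was on 4 of 10 endothelial, 4 of 10 blood and 1 of 10 hepatic markers at both stages, on 9 of 12 neuronal markers at D6 and 10 at D4, on 1 of 10 skeletal muscle markers at D6 and 2 at D4, and on 6 of 10 trophoblast markers at D6 and 7 at D4. H3K4me3 also marks poised genes and does not count cells, and the part of the cell mixture in the H3K27me3 differences was not tested.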

How the data were processed

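The deposited files are MACS2-style peak lists, 1 per mark and stage, on mm10. The submitters' processing notes name MACS2 2.1.2, Bowtie2 2.2.5, deepTools 3.4.3 and fastp 0.20.1. Pooling of libraries and use of a control are not given in the sources used here. For each peak the authors deposited a fold enrichment, the ratio of summit pileup to local background, and a −log10 p value. These ranked or filtered peaks within a list. Pileup and background were solved from the authors' fold and −log10 p under a Poisson model, within 0.01; the lowest share of peaks solved in a list was 99.5%, and the step was tested on simulated data.

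Peaks off chromosomes 1 to 19, X and Y were left out. A gene was marked when a peak lay within 1.0 kb of a start in the RefSeq promoter table (GRCm38.p6, 17492 of 21887 protein-coding genes) or, for the other 4395 genes, of the gene end marked by H3K4me3 at any stage. Both ends were used where both or neither carried H3K4me3. Chromosome coordinates of GRCm38.p6 and mm10 are the same. Named genes, those at the largest domains apart, followed a rule on the authors' fold: list members in order, and the 10 highest of each class, skipping Gm and Rik genes. A promoter was shown only where the gene had a start in the promoter table and the promoter shared at least 1 bp with a D4 peak. The members and the 23 gene lists were chosen with earlier results of these data known. There was 1 list per mark and stage, so no test was made. Alternatives changed list length, p threshold, overlap, gene window and depth. Python 3.11.15 with pandas 2.3.3 and scipy 1.17.1 was used. Some listed genes are not reported by name here.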

Additional observations from a re-analysis of the deposited data

Results flagged for a closer look

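Both H3K27me3 lists hold peaks on sequences other than chromosomes 1 to 19, X and Y, which no comparison used: 4 at D6 and 8 at D4, of which 3 at D4 lay on the mitochondrial genome. They are given because they exceed 3, the limit that a count of 0 allows.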

How the results depend on the processing

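No paired analysis was possible because each mark and stage has 1 list, and for the same reason no replicate could be left out. All 7 main values were recomputed under 39 alternatives in all, of which 15 stayed within the interval (for the bivalent ratio, within 1.5 times) of the main value and 24 did not. The cause was not tested except where the alternative itself sets it. With lists of equal length, the lost share was 57.8%, the gained share 56.7%, the lost share of genes 46.5%, and lost peaks had H3K4me3 in 43.7%, H3K27ac in 19.8% and H3K27me3 again at D8 in 35.9%. Requiring a −log10 p of at least 10 (2790 peaks at D6, 6826 at D4), these 6 values were 73.0%, 33.2%, 65.4%, 49.6%, 23.5% and 27.3%. Counting an overlap only when it covered at least 50% of the peak gave 80.5% lost, 51.8% gained, and at lost peaks 28.4% with H3K4me3, 10.6% with H3K27ac and 21.4% back at D8. Counting any peak within 1000 bp gave 67.9%, 44.1%, 33.8%, 17.1% and 29.6% for the same 5. H3K27ac lists of equal length put the mark on 10.5% of lost peaks. Over gene bodies 45.4% of genes were lost. The bivalent ratio lay between 37.8% (stricter p) and 63.1% (equal length). Depth scaling moved no value out of its interval. Gene ends for all genes, an alternative chosen after seeing the data, gave 54.1% lost. The peak lists hold no read totals, so depth is known only as background, and a weak site cannot be called absent: the smallest pileup listed at the genome-wide background was 12 fragments at D6 and 14 at D4. Where the local background was higher, more fragments were needed for a peak to be listed. Kept regulators had a median local background of 11.8 at D6, and the lowest D6 pileup among them was 21.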
